A study of Mus musculus with 16 samples.

Results

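The genes followed here are 9 liver genes of gluconeogenesis and glucose handling: Pck1, G6pc, Fbp1, Pcx, Ppargc1a, Tat, Igfbp1, Slc2a2 and Pklr. Every probe set of the array that the platform annotation assigns to one of these symbols was taken, whatever its values, which gave 20 of the 22690 probe sets on the array and 9 of the 12394 genes named by a single symbol. Of these, 16 were tested among the 22626 probe sets that are no array controls, and 4 are control probe sets placed along the Pcx transcript. Ppargc1a had 5 tested probe sets, Pklr 3, Pck1 2, and the other 6 genes 1 each.

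RNA came from livers of male FvB/n mice on 16 Affymetrix arrays, in experiments of 8 arrays each. In the first, all mice carried the TTR::Fv2E-PERK transgene of the high-expressing line, in which the transthyretin promoter places a drug-activated form of the stress kinase PERK in the liver; 4 arrays were labelled untreated (the series text speaks of mock injection) and 4 AP20187-treated, AP20187 being the compound that joins and thereby activates the kinase. In the second, wildtype and Alb::GC mice were kept on LFD, the low fat diet, or HFD, the high fat diet, with 2 arrays in each of the 4 groups. Alb::GC mice express in hepatocytes, from the albumin promoter, a fragment of GADD34 that removes the phosphate PERK and its sister kinases place on the translation factor eIF2α. For LFD wildtype replicate 2, whose source field names both genotypes, and AP20187 replicate 4, whose source field is 1 letter, the descriptions gave the group. The sources used here do not give dose, times, length of feeding or age. Nothing says that each array is a separate animal, so p-values measure the spread between these arrays, which may be technical.

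The liver makes glucose from lactate, amino acids and glycerol during fasting. Pcx, pyruvate carboxylase, turns pyruvate into oxaloacetate in mitochondria, Pck1, the cytosolic phosphoenolpyruvate carboxykinase, turns oxaloacetate into phosphoenolpyruvate, Fbp1, fructose-1,6-bisphosphatase, removes a phosphate further up, and G6pc, the catalytic subunit of glucose-6-phosphatase, frees glucose, which leaves or enters the hepatocyte through the transporter Slc2a2 (GLUT2). Pklr, the liver pyruvate kinase, runs the opposite step to Pcx and Pck1 and is known as a target of the carbohydrate-sensing factor ChREBP. Ppargc1a encodes PGC-1α, a coactivator of the gluconeogenic enzymes, Tat is the tyrosine aminotransferase induced by glucocorticoids, and Igfbp1 is a secreted binding protein for insulin-like growth factors whose transcription insulin represses.

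Promoters of 5 members are shown because Igfbp1, G6pc, Pck1, Pklr and Ppargc1a each had a probe set that changed with diet. They are RefSeq windows of 300 bases on build GRCm38.p6, from 250 bases before an annotated start to 50 from it. For Ppargc1a this start lies inside the annotated gene, which spans chr5:51454249-52115853. All 9 members matched a window by gene ID, in 11 windows. Capitals mark matches, on either strand, to any of 7 motifs, the last 2 of which were added after the data were seen: CRE (TGACGTCA), CRE core (TGACG), forkhead (TGTTTNC), C/EBP (TTGCNNAA), the C/EBP-ATF composite (TGATGNAA), an insulin response core (AAAACAA) and the palindromic carbohydrate response element. The CRE core lies inside the CRE. The windows are Igfbp1 at chr11:7197537-7197836, G6pc at chr11:101367466-101367765, Pck1 at chr2:173152823-173153122 and the downstream of 2 Pklr starts at chr3:89136373-89136672, all on the plus strand, and Ppargc1a at chr5:51567676-51567975 on the minus strand.
Igfbp1: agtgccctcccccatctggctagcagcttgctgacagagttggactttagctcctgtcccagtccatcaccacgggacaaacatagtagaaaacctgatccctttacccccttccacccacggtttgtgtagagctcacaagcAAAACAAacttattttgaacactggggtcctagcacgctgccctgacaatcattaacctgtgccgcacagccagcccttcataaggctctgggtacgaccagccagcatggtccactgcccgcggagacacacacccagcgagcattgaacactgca
G6pc: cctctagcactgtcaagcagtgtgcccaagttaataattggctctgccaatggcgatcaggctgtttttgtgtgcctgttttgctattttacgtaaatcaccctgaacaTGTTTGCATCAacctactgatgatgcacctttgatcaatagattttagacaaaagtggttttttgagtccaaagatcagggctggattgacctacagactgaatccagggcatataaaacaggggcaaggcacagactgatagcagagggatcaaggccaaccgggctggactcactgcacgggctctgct
Pck1: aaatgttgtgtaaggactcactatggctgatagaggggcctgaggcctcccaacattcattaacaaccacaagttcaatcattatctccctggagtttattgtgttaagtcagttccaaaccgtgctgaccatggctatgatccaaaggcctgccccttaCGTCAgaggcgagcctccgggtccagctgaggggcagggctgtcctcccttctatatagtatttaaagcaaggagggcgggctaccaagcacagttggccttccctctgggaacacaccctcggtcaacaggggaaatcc
Pklr: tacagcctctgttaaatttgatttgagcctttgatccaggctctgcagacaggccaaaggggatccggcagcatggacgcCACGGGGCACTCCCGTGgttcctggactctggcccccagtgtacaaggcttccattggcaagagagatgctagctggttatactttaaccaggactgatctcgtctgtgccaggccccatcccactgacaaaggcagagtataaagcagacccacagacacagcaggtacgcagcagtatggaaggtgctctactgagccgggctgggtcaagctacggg
Ppargc1a: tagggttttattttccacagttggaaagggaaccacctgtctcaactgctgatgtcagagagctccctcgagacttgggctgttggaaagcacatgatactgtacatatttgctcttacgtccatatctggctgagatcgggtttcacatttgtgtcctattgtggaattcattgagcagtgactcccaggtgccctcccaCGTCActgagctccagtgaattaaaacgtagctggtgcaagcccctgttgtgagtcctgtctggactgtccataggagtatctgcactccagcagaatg

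In Igfbp1 the insulin response core began 107 bases before the start, a motif found in 9.02% of the 32851 promoter windows. In G6pc the forkhead match began 141 bases before the start and overlapped a C/EBP-ATF composite on the other strand that began 138 before it; 20.5% and 3.97% of windows hold these motifs. In Pck1 the CRE core, read on the other strand, lay 90 bases before the start (20.8% of windows). The carbohydrate response element of Pklr began 170 bases before its downstream start, and 15 of the 32851 windows (0.0457%) hold such a match. This motif and the insulin response core were chosen after the data were seen. Their shares of windows therefore cannot show how unexpected the Pklr and Igfbp1 matches are. A match of this kind describes the sequence and is not a measured binding site. In Ppargc1a a CRE core, also on the other strand, lay 49 bases before the internal start of its window. These 5 members were the ones with a match. For Igfbp1 and Pklr the only matches were to the 2 motifs added after the data were seen. That the members with a match are those that changed with diet rests partly on this choice and is not a result.

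The deposited values are ratios around 1 without a stated reference, given to 2 decimals, with array medians between 0.94 and 1.02. They hold no absolute level, so no gene or probe set can be called abundant or scarce, liver markers cannot be checked for presence, and the experiments are never set on a common scale. Changes are differences of log2(ratio + 0.05) ± standard error, and a probe set passed where the limma p, Benjamini-Hochberg adjusted over the 22626 probe sets, was below 0.05. Replicates correlated at 0.442 to 0.658 across probe sets. As a check of the treatment label, the stress gene Ddit3 (CHOP) lay at 0.05 to 0.07 in untreated and 0.84 to 1.33 in AP20187 arrays. The log2 difference between the 3' and 5' control probe sets, a reading of RNA quality, separated the diets: for beta-actin it was -0.16 to 0.21 in the 4 LFD and -0.71 to -0.33 in the 4 HFD arrays, and for Gapdh 0.04 to 0.22 and -0.31 to -0.15. Diet and this reading cannot be told apart. Among TTR::Fv2E-PERK arrays the Gapdh reading was -0.06 to -0.01 in untreated arrays, -0.14 to -0.10 in 3 treated arrays and 0.19 in AP20187 replicate 3. The beta-actin reading there was -0.18 to -0.02 in untreated arrays and -0.04, 0.15, 0.15 and 0.15 in AP20187 replicates 1 to 4, so 3 of 4 treated arrays lay above all untreated ones. The part of these readings in the changes with AP20187 was not tested.

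With AP20187, Igfbp1 rose 3.01-fold, while Slc2a2 fell 2.19-fold and Pcx, Fbp1 and G6pc fell by smaller amounts. Of the 16 tested probe sets 2 rose, 5 fell and 9 did not pass, that is 43.8% called against 34.1% of all probe sets on the array, of which 13.7% rose and 20.4% fell. The median change of the members was -0.14, beside -0.13 over all probe sets. The members thus divided around the shift of the whole array, and the share of calls lay near that of all probe sets. The arrays did not overlap between treated and untreated for 1 probe set higher and 5 lower, and for 14.5% and 20.5% of all probe sets in those directions. Without AP20187 replicate 3 the count of calls was 10, with 6 higher and 4 lower.

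**Figure D1:**
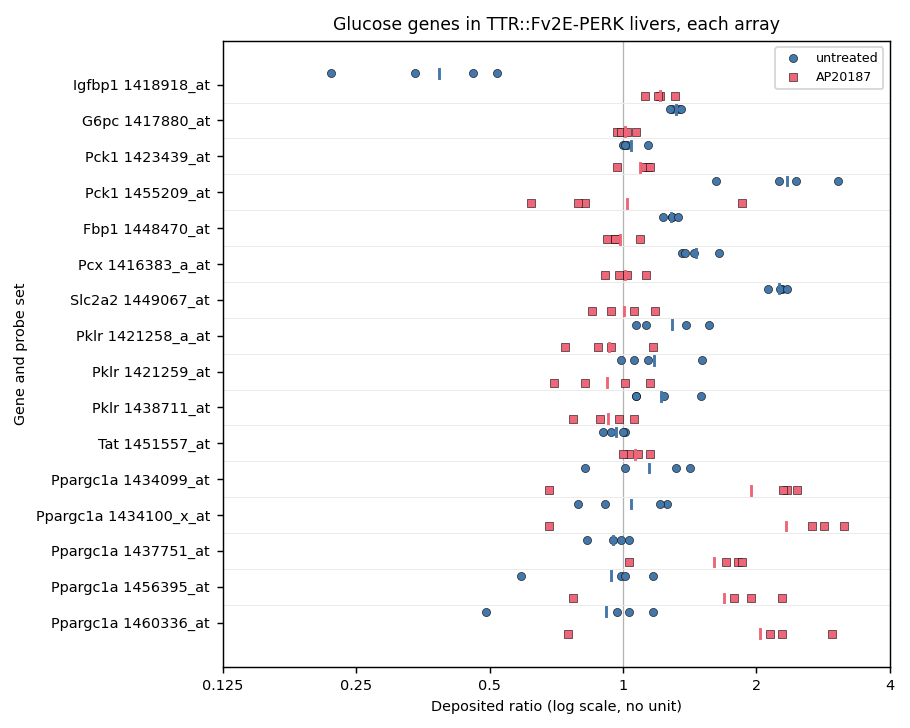
Ratios (horizontal axis, log scale, no unit) of the 16 tested probe sets in each TTR::Fv2E-PERK array; circles are the 4 untreated and squares the 4 AP20187 arrays, and short vertical bars are group means. Igfbp1 lies at 0.22 to 0.52 untreated and at 1.12 to 1.31 treated, Slc2a2 at 2.13 to 2.34 and 0.85 to 1.18, and 1 treated array lies far left of the other 3 in the Ppargc1a rows.

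The enzymes Pcx, Fbp1 and G6pc were lower in treated livers. Pcx, on its tested probe set 1416383_a_at, had ratios of 1.45, 1.36, 1.38 and 1.65 in untreated and 1.02, 0.91, 1.13 and 0.98 in AP20187 arrays. All treated arrays lay below all untreated ones, and Pcx fell by 0.51 ± 0.10 on the log2 scale (limma, adjusted p = 0.0046). Fbp1 lay at 1.29, 1.29, 1.23 and 1.33 untreated and 0.96, 0.92, 1.09 and 0.96 treated and fell by 0.37 ± 0.08 (limma, adjusted p = 0.0076). G6pc, the last enzyme of the path, went from 1.34, 1.35, 1.29 and 1.28 to 1.07, 0.97, 0.99 and 1.02 and fell by 0.36 ± 0.07 (limma, adjusted p = 0.0046). These are 1.42-, 1.30- and 1.28-fold falls, in which no treated array reached an untreated one. Quantile normalization ended the calls of Fbp1 (-0.22, adjusted p = 0.0703) and G6pc (-0.19, adjusted p = 0.105).

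The 2 probe sets of Pck1 disagreed. Probe set 1423439_at had ratios of 1.02, 1, 1.01 and 1.14 in untreated and 1.14, 0.97, 1.12 and 1.15 in AP20187 arrays, a difference of 0.07 ± 0.09 with a 95% interval of -0.14 to 0.27 (limma, adjusted p = 0.622). Probe set 1455209_at had 2.46, 1.62, 3.06 and 2.25 untreated and 0.82, 0.79, 0.62 and 1.86 treated, and fell by 1.25 ± 0.33 (limma, adjusted p = 0.021). On it AP20187 replicate 4 lay among the untreated arrays. The interval on this probe set was -2.02 to -0.48, which does not meet that of the other. The call on 1455209_at ended without untreated replicate 1 (adjusted p = 0.0508) or 3 (0.0545), or without AP20187 replicate 1 (0.0548), 2 (0.0586) or 3 (0.0515). The sources used here do not say which stretch of the transcript each reads.

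Slc2a2, the glucose transporter, had the lowest adjusted p among the members with AP20187. Its ratios were 2.29, 2.26, 2.13 and 2.34 in untreated and 1.06, 0.94, 0.85 and 1.18 in AP20187 arrays. The means were 2.25 ± 0.0896 and 1.01 ± 0.144 (SD, n = 4 each), and Slc2a2 fell by 1.13 ± 0.11 (limma, adjusted p = 0.000245). The fall held under all 15 alternatives run, at -1.21 to -0.93. Markers of hepatocytes, the cells that carry this transporter in the liver, moved the same way. Of their 16 probe sets over 9 measured genes 15 fell, beside 20.4% of all probe sets. Their mean ratio was 1.71 to 2.13 in untreated and 0.873 to 1.01 in treated arrays. Stellate, macrophage and endothelial markers fell too, on 7 of 12, 5 of 9 and 3 of 7 probe sets. The part of hepatocyte markers in the falls of Slc2a2, Pcx, Fbp1 and G6pc was not tested. In whole liver, fewer cells of a type and less RNA per cell cannot be told apart.

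Pklr, which runs glycolysis towards pyruvate, did not pass on any of its 3 probe sets. Its values were -0.45 ± 0.17 on 1421258_a_at, -0.34 ± 0.18 on 1421259_at and -0.38 ± 0.14 on 1438711_at (limma, adjusted p = 0.0733, 0.199 and 0.0756). The treated arrays lay at 0.7 to 1.17 and the untreated ones at 0.99 to 1.56 over the 3 probe sets. On 1438711_at all treated arrays, at 0.77 to 1.06, lay below all untreated ones, at 1.07 to 1.5. This was also so for 20.5% of all probe sets. On the others the groups overlapped. Without AP20187 replicate 4, 1421258_a_at passed at -0.56 (adjusted p = 0.037).

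The coactivator Ppargc1a was high in 3 treated arrays and not in the other. On 1434100_x_at, whose name marks probes that may match other transcripts, it had ratios of 1.26, 1.21, 0.91 and 0.79 in untreated arrays and 3.15, 2.67, 0.68 and 2.84 in AP20187 replicates 1 to 4. On 1460336_at the values were 1.17, 1.03, 0.97 and 0.49, then 2.97, 2.15, 0.75 and 2.28. The same AP20187 replicate 3 was the lowest treated array on all 5 probe sets, between 0.68 and 1.03. Its Gapdh control reading stood apart at 0.19, and so did that of Pcx, at 0.47 against -0.16 to -0.11 in the other treated arrays, while its beta-actin reading of 0.15 was that of replicates 2 and 4. The part of these readings in the low values was not tested. With all arrays only 1437751_at passed, rising by 0.70 ± 0.19 (limma, adjusted p = 0.0218), and the other 4 stood at 0.62 to 1.02 (adjusted p = 0.108 to 0.294). Without AP20187 replicate 3 the 4 others passed as well, at 1.05 on 1434099_at, 1.45 on 1434100_x_at, 1.08 on 1456395_at and 1.43 on 1460336_at (limma, adjusted p = 0.00596, 0.00138, 0.0106 and 0.00957). The call on 1437751_at ended without untreated replicate 4 (adjusted p = 0.059) or without AP20187 replicate 1 (0.0599), 2 (0.0614) or 4 (0.0571).

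Igfbp1, on 1418918_at, had ratios of 0.34, 0.46, 0.52 and 0.22 in untreated and 1.21, 1.12, 1.2 and 1.31 in AP20187 arrays. Every treated array lay above every untreated one by more than the spread within either group. The mean went from 0.385 ± 0.133 to 1.21 ± 0.0779 (SD, n = 4 each), a rise of 1.59 ± 0.25 (limma, adjusted p = 0.00208) that held under all 15 alternatives at 1.22 to 1.74. Tat, the tyrosine aminotransferase, lay at 1.01, 0.94, 0.9 and 1 in untreated and 1.03, 1, 1.15 and 1.08 in treated arrays. Its difference of 0.14 ± 0.09 had a 95% interval of -0.06 to 0.34 (limma, adjusted p = 0.264).

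Other genes of the pathway were counted by probe set on lists that left the members out. Of 65 probe sets for other enzymes and transporters of the glucose path (36 measured genes) 12 rose, 23 fell and 30 did not pass. That is 53.8% called, beside 34.1% of all probe sets (13.7% higher, 20.4% lower). Rises included Pdk4, the kinase that shuts off pyruvate dehydrogenase, at 2.83 ± 0.51, and Pfkfb3, which makes the activator of phosphofructokinase, at 2.48 ± 0.25. Falls included the glycolytic enzymes Tpi1 at -1.37 ± 0.12 and Pgam1 at -1.03 ± 0.14. Of 48 probe sets for regulators of glucose output (27 genes) 26 rose, 3 fell and 19 did not pass, 60.4% in all. They included the pseudokinase Trib3 at 3.72 ± 0.28 and the nuclear receptor Nr4a1 at 2.77 ± 0.21, while the nuclear receptor Nr0b2 stood at -0.80 ± 0.21 and the glucagon receptor Gcgr at -0.73 ± 0.11. The median change of the regulators was 0.65, beside -0.13 over all probe sets.

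In the insulin-like growth factor axis none of the other genes had a probe set that rose. Of 22 probe sets for 10 other genes of the axis 12 fell and 10 did not pass (median -0.31). That is 54.5% lower, beside 20.4% of all probe sets. The binding proteins Igfbp5 and Igfbp3 fell by 1.33 ± 0.19 and 1.32 ± 0.21 (limma, adjusted p = 0.00129 and 0.00191), the former on 1452114_s_at, while Igfbp5 on 1422313_a_at stood at -0.40 ± 0.29 (adjusted p = 0.343). Of 21 probe sets for breakdown of tyrosine and other amino acids (18 genes) 1 rose, 11 fell and 9 did not pass (median -0.43). That is 57.1% called, beside 34.1% of all probe sets. The histidine pathway enzyme Amdhd1 stood at -1.27 ± 0.09 and the proline oxidase Prodh rose by 0.87 ± 0.12.

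With the high fat diet, averaged over both genotypes, Igfbp1 fell 6.83-fold and G6pc 2.15-fold, while Ppargc1a rose on all 5 probe sets, Pklr on 2 of 3 and Pck1 on 1 of 2. Of the 16 tested probe sets 8 rose, 2 fell and 6 did not pass, 62.5% called against 27.5% of all probe sets (13.5% higher, 14% lower). Since 8 of the 16 belong to Ppargc1a or Pklr, this share is not one of independent genes. The same 10 probe sets had no overlap between the 4 HFD and the 4 LFD arrays, 8 higher and 2 lower, beside 12.9% and 15.9% of all probe sets. The median change was 0.47, beside -0.07 over all probe sets. In wildtype alone 6 rose and 2 fell, 50% in all, beside 14.6% of all probe sets (7.97% higher, 6.63% lower). In Alb::GC alone 1 rose and 1 fell, 12.5% in all, beside 6.77% of all probe sets (4.64% higher, 2.13% lower). With 2 arrays a group, 11 members lay wholly higher and 2 wholly lower on HFD in wildtype, beside 26.7% and 36% of all probe sets, and 11 and 4 in Alb::GC, beside 29.1% and 30.9%. Without HFD wildtype replicate 1, replicate 2 or LFD wildtype replicate 2 the wildtype count was 0, 1 and 4, while the share over all probe sets was 0.38%, 0.208% and 5.84%. Without any single Alb::GC array the Alb::GC count was 0, and the share over all probe sets was 0.0796% to 1.54%. These losses were thus array-wide. Without HFD wildtype replicate 1 the averaged count was 5, and without HFD Alb::GC replicate 2 it was 6, beside 14.5% and 16% of all probe sets.

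**Figure D2:**
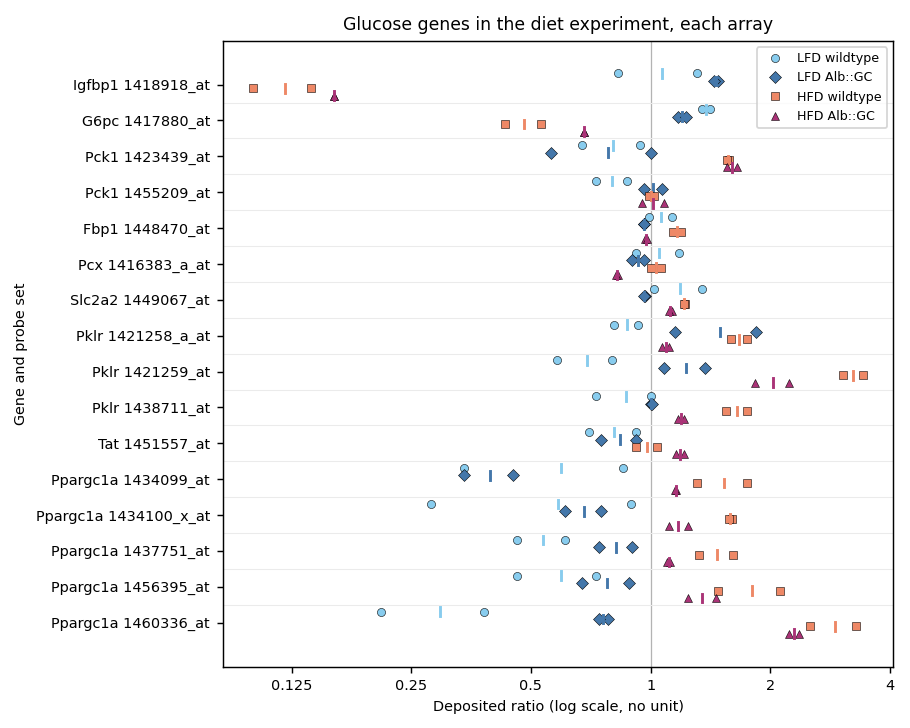
Ratios (horizontal axis, log scale, no unit) of the 16 tested probe sets in each array of the diet experiment; each of the 4 groups has 2 arrays, drawn as its own marker, and short vertical bars are group means. Igfbp1 lies at 0.1 to 0.16 in HFD and at 0.83 to 1.48 in LFD arrays, G6pc is also to the left on HFD, and the Ppargc1a rows lie to the right on HFD in both genotypes.

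G6pc had LFD ratios of 1.35 and 1.41 (wildtype) and 1.17 and 1.23 (Alb::GC) and HFD ratios of 0.43 and 0.53 (wildtype) and 0.68 and 0.68 (Alb::GC). All HFD arrays lay below all LFD arrays. Averaged over genotypes G6pc fell by 1.11 ± 0.14 (limma, adjusted p = 0.00481), and this held under all 15 alternatives. Within wildtype it fell by 1.44 ± 0.19 (limma, adjusted p = 0.0109), a call that ended without HFD wildtype replicate 1 (0.055) or 2 (0.0506), and within Alb::GC it stood at -0.78 ± 0.19 (adjusted p = 0.0644). Fbp1 lay at 0.96 to 1.19 in all 8 arrays, with a diet difference of 0.08 ± 0.10 and a 95% interval of -0.15 to 0.31 (limma, adjusted p = 0.571).

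Pck1 again gave different readings on its probe sets. On 1423439_at LFD ratios were 0.94 and 0.67 (wildtype) and 0.56 and 1 (Alb::GC), and HFD ratios 1.57 and 1.56 (wildtype) and 1.56 and 1.65 (Alb::GC). All HFD arrays were higher and close together, and the averaged rise was 0.99 ± 0.20 (limma, adjusted p = 0.0176). That call ended without HFD wildtype replicate 1 (0.0533) or 2 (0.0514) or HFD Alb::GC replicate 2 (0.0527). On 1455209_at, the probe set that fell with AP20187, the ratios were 0.73 to 1.07 on LFD and 0.95 to 1.08 on HFD, a difference of 0.16 ± 0.12 with an interval of -0.13 to 0.45 (limma, adjusted p = 0.359). So in each experiment a different one of the 2 probe sets passed.

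Pcx was read by 5 probe sets, and the sources used here do not say where on the transcript the tested one lies. The tested probe set lay at 0.82 to 1.18 in all 8 arrays, with a diet difference of -0.09 ± 0.12 (limma, adjusted p = 0.613). The 5' control probe set had LFD ratios of 0.62 and 0.49 (wildtype) and 0.38 and 0.69 (Alb::GC) and HFD ratios of 2.26 and 1.95 (wildtype) and 0.98 and 1.26 (Alb::GC). At the 3' control the same arrays read 1.03 and 0.69, 0.86 and 0.91, 0.96 and 1.08, and 0.97 and 0.88. The diets were thus apart at the 5' end and overlapped at the 3' end of the same transcript. With the control probe sets kept in the fit, the averaged diet change was 1.44 ± 0.22 at the 5' control, 0.91 ± 0.16 and 0.64 ± 0.12 at the middle controls MA and MB, and 0.16 ± 0.16 at the 3' control (limma, adjusted p = 0.00812, 0.0125, 0.0153 and 0.486). With AP20187 the 5', MB and 3' controls fell by 0.38 ± 0.12, 0.46 ± 0.10 and 0.48 ± 0.09, and MA stood at -0.22 ± 0.09 (limma, adjusted p = 0.0466, 0.00747, 0.00445 and 0.116), beside -0.51 at the tested probe set. For diet, therefore, the value of Pcx at the controls depended on where along the transcript it was read. The 3' against 5' readings of beta-actin and Gapdh separated the diets as well, and their part in these values was not tested.

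**Figure D3:**
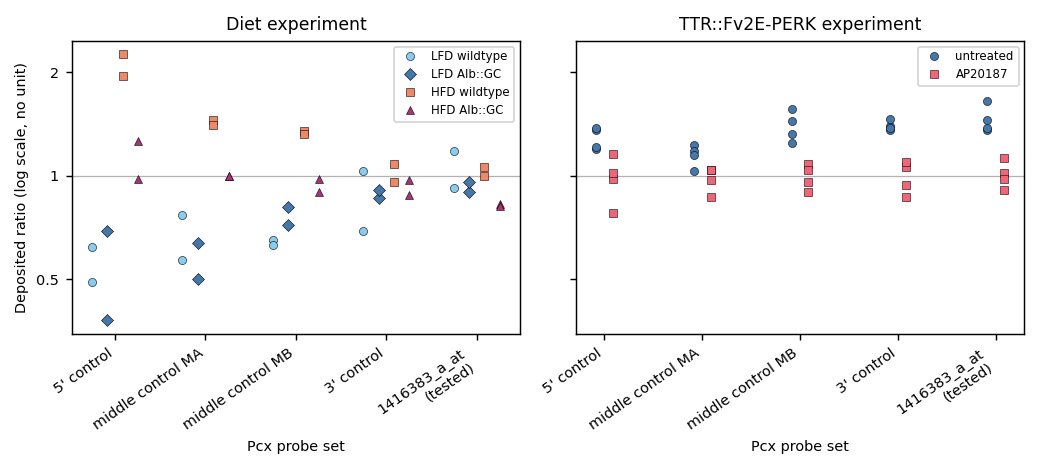
Ratios (vertical axis, log scale, no unit) of the 5 Pcx probe sets, the 5' control, 2 middle controls, the 3' control and the tested probe set, with the diet experiment on the left and the TTR::Fv2E-PERK experiment on the right; each marker is 1 array. HFD wildtype arrays lie at 1.95 and 2.26 at the 5' control and at 0.96 and 1.08 at the 3' control, while treated arrays lie lower than most untreated arrays at every probe set.

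Slc2a2, which had fallen with AP20187, overlapped between the diets, at 0.96 to 1.35 on LFD and 1.11 to 1.22 on HFD. Its diet difference was 0.13 ± 0.11 with an interval of -0.14 to 0.40 (limma, adjusted p = 0.426).

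Pklr was higher on the high fat diet, on 2 of its 3 probe sets when averaged over genotypes. On 1421259_at LFD ratios were 0.58 and 0.8 (wildtype) and 1.37 and 1.08 (Alb::GC), and HFD ratios 3.05 and 3.42 (wildtype) and 1.83 and 2.23 (Alb::GC). All HFD arrays lay above all LFD arrays, and the averaged rise of 1.44 ± 0.15 (limma, adjusted p = 0.00342) held under all 15 alternatives. Within wildtype the rise was 2.16 ± 0.22 (limma, adjusted p = 0.00637), with adjusted p = 0.0501 without HFD wildtype replicate 1 and 0.0504 without 2. Within Alb::GC it stood at 0.71 ± 0.22 (adjusted p = 0.0994). On 1438711_at the averaged rise was 0.57 ± 0.12 (limma, adjusted p = 0.0208), and leaving out any single HFD array or either LFD Alb::GC array took the adjusted p to between 0.0522 and 0.0712. On 1421258_a_at LFD Alb::GC lay at 1.84 and 1.15, above both HFD Alb::GC arrays at 1.11 and 1.07. There wildtype rose by 0.90 ± 0.22 (limma, adjusted p = 0.0461), and the averaged value was 0.25 ± 0.16 (adjusted p = 0.271). That wildtype call ended under quantile normalization (0.0878) and without any single wildtype array of either diet (0.103 to 0.171).

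Ppargc1a had the largest averaged rise among the members on the high fat diet, on 1460336_at. There it had LFD ratios of 0.21 and 0.38 (wildtype) and 0.78 and 0.74 (Alb::GC) and HFD ratios of 3.29 and 2.52 (wildtype) and 2.23 and 2.36 (Alb::GC). The order of the groups was HFD wildtype, HFD Alb::GC, LFD Alb::GC and LFD wildtype, with no overlap between neighbours. The averaged rise was 2.33 ± 0.18 (limma, adjusted p = 0.00171), namely 3.13 ± 0.26 for wildtype and 1.53 ± 0.26 for Alb::GC (limma, adjusted p = 0.00499 and 0.0295). The wildtype call ended without HFD wildtype replicate 1 (2.94, adjusted p = 0.0501), and the Alb::GC call without any single Alb::GC array (1.49 to 1.57, adjusted p = 0.0953 to 0.12). The other 4 probe sets rose by 0.90 to 1.42 on average over genotypes (limma, adjusted p = 0.0111 to 0.0449). Of these, 1456395_at kept its call whichever array was left out. The call on 1437751_at ended without HFD wildtype replicate 1 (0.0503), that on 1434099_at without LFD Alb::GC replicate 2 (0.0538), HFD wildtype replicate 1 (0.0699) or HFD Alb::GC replicate 1 (0.0589) or 2 (0.0579), and that on 1434100_x_at without any single HFD or LFD Alb::GC array (0.0881 to 0.112). The rise thus ranged from 0.90 to 2.33 between probe sets of 1 gene. The 3' against 5' readings of the control transcripts, which separated the diets, stand beside these values.

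Tat lay at 0.7 to 0.92 on LFD and 0.92 to 1.21 on HFD, and its diet difference of 0.38 ± 0.14 did not pass (limma, adjusted p = 0.096). Igfbp1 had LFD ratios of 0.83 and 1.31 (wildtype) and 1.48 and 1.44 (Alb::GC) and HFD ratios of 0.14 and 0.1 (wildtype) and 0.16 and 0.16 (Alb::GC). Its fall was similar in size in both genotypes, at -2.70 ± 0.41 for wildtype and -2.85 ± 0.41 for Alb::GC (limma, adjusted p = 0.0155 and 0.0208). The averaged fall of 2.77 ± 0.29 (limma, adjusted p = 0.00337) held under all 15 alternatives, at -3.07 to -1.94, and depends in size on the offset of 0.05 because the HFD ratios are small. Within a genotype the call ended when single arrays were left out, for wildtype LFD replicate 2 (0.0586) and HFD replicate 1 (0.0662) or 2 (0.0728), and for Alb::GC any of its 4 arrays (0.0724 to 0.0882).

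Of the 65 probe sets of the glucose path 17 rose, 4 fell and 44 did not pass on average over genotypes, 32.3% beside 27.5% of all probe sets. Pdk1, a pyruvate dehydrogenase kinase, rose by 2.16 ± 0.24 on 1423747_a_at and by 0.73 ± 0.10 on 1423748_at. Pfkfb2, a relative of Pfkfb3, rose by 3.11 ± 0.35 on 1422090_a_at, while its other 2 probe sets stood at -1.11 ± 0.38 and 0.13 ± 0.20 (limma, adjusted p = 0.0757 and 0.646). Aldoa fell by 0.76 ± 0.16 on 1439375_x_at, but its other 3 probe sets stood at -0.30, 0.19 and 0.09 and did not pass (limma, adjusted p = 0.151 to 0.72). The glycerol phosphate dehydrogenase Gpd1 fell by 0.66 ± 0.13 on 1448249_at, and its other 3 stood at -1.08 to -0.38 and did not pass (adjusted p = 0.172 to 0.316). Of the 48 probe sets of regulators 16 rose, 7 fell and 25 did not pass (47.9%). Foxo1, the insulin-restrained activator of G6pc and Igfbp1, rose by 1.54 ± 0.14 on 1416982_at and 0.96 ± 0.27 on 1416981_at, and stood at 0.84 and -0.48 on its other 2 probe sets (limma, adjusted p = 0.0714 and 0.297). The nuclear receptor Ppara rose by 2.08 ± 0.40, and the kinase Sik1 fell by 1.22 ± 0.16. Stat3 had probe sets in both directions, at 1.36 ± 0.08, 0.92 ± 0.24 and -0.96 ± 0.15. Of 21 probe sets for amino acid breakdown 5 rose, 2 fell and 14 did not pass, among them the tryptophan dioxygenase Tdo2 at 1.03 ± 0.13 on 1449337_at (0.41 ± 0.13 on its other, limma, adjusted p = 0.0599) and the urocanate hydratase Uroc1 at -0.74 ± 0.14. In the growth factor axis, beside the fall of Igfbp1, 1 of 22 probe sets passed, Igfbp2, which fell by 0.85 ± 0.22.

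Other tissues that express members were looked for with marker lists. On the high fat diet the adipocyte list, which matters for Pck1, had 3 measured probe sets at mean ratios of 0.537 to 1.02 in LFD and 0.603 to 0.837 in HFD arrays. The kidney tubule list, from another tissue with high Pck1, had 8 probe sets at 0.885 to 1.02 in LFD and 0.706 to 0.835 in HFD arrays. The islet list, for Slc2a2, had 8 at 0.662 to 1.1 over the diet arrays and 0.444 to 0.805 over the TTR::Fv2E-PERK arrays. On the adipocyte list no probe set passed with diet, and on the kidney list 3 of 8 fell. The neutrophil list lay at 2.4 to 2.92 in HFD wildtype against 0.452 to 1.17 in all other diet arrays. Averaged over genotypes 1 of its 4 probe sets rose and 1 fell on HFD. In wildtype 2 rose and 0 fell, beside 7.97% and 6.63% of all probe sets. In Alb::GC 0 rose and 1 fell, beside 4.64% and 2.13%. The exocrine pancreas list lay at 0.953 to 1.05 in LFD and 0.173 to 0.667 in HFD arrays (2 of 3 probe sets lower), and the endothelial list at 0.854 to 1.06 and 1.13 to 1.26 (1 of 7 higher). Among the other lists, the hepatocyte list had 1 of 16 probe sets higher and 6 lower on HFD, cholangiocyte 1 and 2 of 5, islet 0 and 2 of 8, stellate 0 and 2 of 12, lymphocyte 2 and 0 of 5, and macrophage 1 and 0 of 9. Their part in the changes of the members was not tested. With AP20187 the macrophage list had 5 of 9 probe sets lower and the stellate list 7 of 12. The endothelial list had 3 of 7 lower and the exocrine pancreas list 1 of 3. The cholangiocyte list had 1 of 5 higher, and the part of these lists was not tested either. Over all probe sets 20.4% were lower and 13.7% higher with AP20187. On HFD averaged over genotypes these shares were 14% and 13.5%.

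Between genotypes no member passed. On LFD 0 of 16 probe sets passed (limma, Benjamini-Hochberg; 4 had an unadjusted p under 0.05), as did 0 of all 22626, or 0% (2337 unadjusted). On HFD 0 of 16 passed (4 unadjusted), beside 30 of all probe sets, or 0.133%. The signs of the differences nevertheless varied with diet, mainly for Ppargc1a and Pklr. Since 8 of the 16 probe sets belong to these genes, the counts that follow are not of independent genes. The other members had differences of both signs on each diet. On LFD, 10 of 16 differences were above 0 (median 0.27, beside -0.06 over all probe sets), with 6 probe sets wholly higher and 3 wholly lower in Alb::GC, beside 15.5% and 23.3% of all probe sets. On HFD 11 of 16 were below 0 (median -0.31, beside 0.02). On HFD both Alb::GC arrays lay below both wildtype arrays for 11 probe sets and above for 3, which with 2 arrays a group was also so for 21.9% and 24.6% of all probe sets.

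The 11 included all 5 Ppargc1a and all 3 Pklr probe sets. Alb::GC stood at -0.42 to -0.32 on HFD for Ppargc1a, and for Pklr at -0.66 ± 0.22, -0.59 ± 0.22 and -0.45 ± 0.17 (limma, adjusted p = 0.335 to 0.408). G6pc, with 0.43 and 0.53 for wildtype against 0.68 and 0.68 for Alb::GC, stood at 0.47 ± 0.19 with an interval of 0.01 to 0.93 (limma, adjusted p = 0.443). On LFD, where Ppargc1a on 1460336_at was 0.21 and 0.38 for wildtype and 0.78 and 0.74 for Alb::GC, the difference was 1.28 ± 0.26 (limma, adjusted p = 0.217). Pklr on 1421259_at stood at 0.79 ± 0.22 on LFD (adjusted p = 0.337). These differences did not pass, and the intervals leave room for changes of more than 2-fold in some and for none in others. The 3' against 5' reading was also apart between the genotypes on HFD for beta-actin and Pcx. For beta-actin it was -0.71 to -0.62 in wildtype and -0.44 to -0.33 in Alb::GC, for Pcx -1.19 to -0.82 and -0.49 to -0.01. For Gapdh the genotypes overlapped, at -0.31 to -0.22 and -0.23 to -0.15. The part of these readings in the genotype differences was not tested.

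The test of whether diet acted differently by genotype, the interaction, passed for 0 of 16 members and 0 of 22626 probe sets, or 0% (limma, Benjamini-Hochberg; 6 and 2517 with an unadjusted p under 0.05). Its values were -1.60 ± 0.37 for Ppargc1a on 1460336_at and -1.46 ± 0.31 and -1.31 ± 0.32 for Pklr on 1421259_at and 1421258_a_at (limma, adjusted p = 0.221, 0.206 and 0.244). A negative value means a smaller rise with HFD in Alb::GC. For G6pc it was 0.66 ± 0.27, a smaller fall (adjusted p = 0.444), and for Igfbp1 -0.15 ± 0.58, with an interval of -1.56 to 1.26 (adjusted p = 0.945). A call in wildtype that was missing in Alb::GC, as for Pklr and G6pc, is therefore not shown to be a difference between genotypes. The part of the 3' against 5' readings in the interaction values was not tested either.

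**Figure D4:**
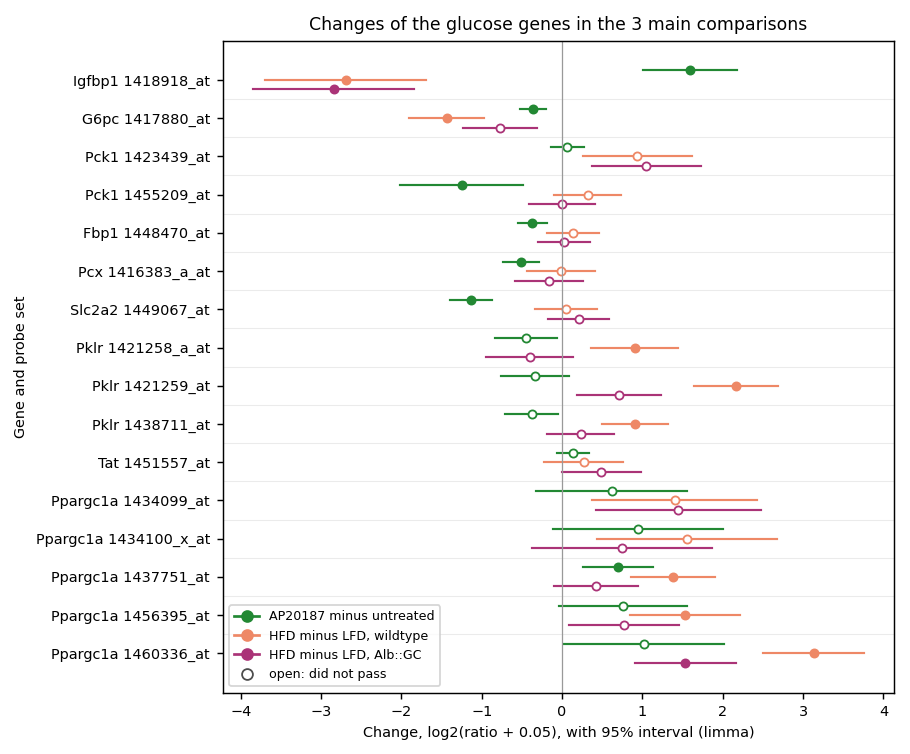
Change on the log2(ratio + 0.05) scale (horizontal axis) with 95% limma intervals for the 16 tested probe sets, for AP20187 minus untreated, HFD minus LFD in wildtype and HFD minus LFD in Alb::GC; filled points passed at an adjusted p below 0.05 and open points did not. Igfbp1 lies at 1.59 with AP20187 and at -2.70 and -2.85 with HFD, and Slc2a2 lies at -1.13 with AP20187 and near 0 with HFD.

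Set side by side, the experiments, which share no arrays, gave the members different profiles. Igfbp1 changed by 1.59 with AP20187 and by -2.77 with HFD, so it rose in one and fell in the other. G6pc fell in both, by 0.36 and 1.11. Ppargc1a on 1437751_at rose in both, by 0.70 and 0.90, while its other probe sets passed with HFD and did not with AP20187. Pck1 passed on 1455209_at, where it fell, with AP20187 and on 1423439_at, where it rose, with HFD. Pcx on its tested probe set, Fbp1 and Slc2a2 passed with AP20187 and did not with HFD, whereas Pklr passed with HFD and did not with AP20187. Tat passed in neither. These comparisons were not tested against each other, because each experiment has its own scale.

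For the members that passed, the genes with the nearest pattern were found by the root mean square difference of log2 ratios over 16 arrays, each experiment centred on its own mean. Slc2a2 lay nearest to Qdpr at 0.10, Abhd4 at 0.10 and Tecr at 0.12. G6pc lay nearest to Cyp2d13 and Ada, both at 0.13, and Ext2 at 0.14, and Fbp1 nearest to Slc25a5 at 0.06, Igfbp4 on 1423757_x_at at 0.07 and Pdha1 at 0.07. Pcx was also nearest to Slc25a5, at 0.06. For Igfbp1 the nearest were Chka, Ms4a10 and Mboat1 at 0.47, 0.47 and 0.51. The measure is not scaled to the size of a gene's changes, so distances are not comparable between members. The nearest to Ppargc1a on 1460336_at were Esr1 at 0.40, Klf9 at 0.41 and Zfp617 at 0.44, and to Pklr on 1421259_at Gbe1, the glycogen branching enzyme, at 0.24, Anxa5 at 0.26 and Ak4 at 0.27. No member was among the 3 nearest genes of another. The 2 Pck1 probe sets had different neighbours, Srsf1, Usf2 and Ppp1cb at 0.12 to 0.14 for 1423439_at and Irgm1, Ganc and Ugcg at 0.28 to 0.30 for 1455209_at.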

How the data were processed

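Liver RNA was hybridised as biotin-labelled cRNA to 16 single-sample arrays, per the labels' protocols. The authors deposited a linear ratio per probe set and array; this unit was read from the values, and the sources used here do not state its reference, software or summary method. No further scaling was applied, 0.05 was added before log2, and the 64 control probe sets were left out of the fits. Each experiment of 8 arrays was fitted alone with limma 3.58.1 (R 4.3.3), with a mean-variance trend; 4 diet groups of 2 shared 1 spread with 4 residual degrees of freedom, and the other fit had 6. The members are all probe sets of the 9 genes; list genes named are at most 2 per direction by size among those past the threshold. Members and lists were chosen with earlier results of these data known. Symbols come from the supplied platform annotation (20380 probe sets with 1 symbol, 1555 with none, 691 with several, which named no gene). Promoters are RefSeq, GRCm38.p6; 2 of the motifs searched were added after the data were seen. Figures used matplotlib 3.10.9 in Python 3.11.15. Precision is limited by the number of arrays. On simulated data of 22626 probe sets, changes of 0.5, 1, 2 and 3 log2 units were recovered at 4%, 36%, 76% and 64% for AP20187 and at 0%, 2%, 38% and 58% for HFD in wildtype (50 probe sets each). Only these probe sets were changed in the simulation, while 34.1% and 14.6% of all probe sets passed in the data. The adjusted threshold was thus stricter in the simulation, and these rates do not measure recovery in the data. Alternatives were other offsets, normalizations and variance settings, a filter, left-out arrays and fewer groups.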

Additional observations from a re-analysis of the deposited data

Results flagged for a closer look

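Within groups of 4, single arrays stood apart from the other 3 for 4 of 40 groups examined by Dixon's ratio of gap to range; chance gives about 1 in 20. For Ppargc1a on 1434099_at AP20187 replicate 3 was low at 0.68. For Pck1 on 1455209_at AP20187 replicate 4 was high at 1.86. For Pck1 on 1423439_at untreated replicate 4 was high at 1.14 and AP20187 replicate 2 low at 0.97, both within a narrow range. Among control probe sets, Pcx was higher in all HFD than in all LFD arrays at the 5' control and the middle controls MA and MB, with mean HFD ratios of 1.61, 1.22 and 1.14.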

How the results depend on the processing

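No paired analysis was possible because the labels number the arrays in one sequence and give no replicate number shared between groups. Under the changes of offset, normalization, variance trend and filter run, the count of member calls in each comparison stayed within 1.5 times of that reported (5 for AP20187 with quantile normalization), and no member that passed turned its direction. Leaving out single arrays gave 5 to 10 member calls for AP20187 (7 with all arrays), 0 to 9 for HFD in wildtype (from 8), 0 to 0 for HFD in Alb::GC (from 2) and 5 to 10 for HFD averaged over genotypes (from 10). The share called over all probe sets was lower in each of these fits, at 27.2% to 33.4%, 0.208% to 7.04%, 0.0796% to 1.54% and 14.5% to 22.3%. With only the 4 arrays compared, calls were 2 for HFD in wildtype and 0 for HFD in Alb::GC, beside 4.23% and 0% of all probe sets; that fit has fewer residual degrees of freedom. An arm left with 1 array was assumed to vary like the other groups. Keeping the 64 control probe sets, which was chosen after seeing the data, left these counts as they were. The genotype comparisons and the interaction had 0 member calls under every alternative run.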
